A study of Homo sapiens with 18 samples.

Results

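The 10 genes described here encode regulators of G protein signalling (RGS): RGS2, RGS3, RGS4, RGS10, RGS12, RGS14, RGS16, RGS17, RGS19 and RGS20. They were chosen by symbol from the 21 numbered RGS genes in the files, with earlier values of the same libraries known, and the choice states no threshold, so how many of them changed is given as a description and supports nothing. All 10 matched a gene ID, out of 62649 IDs. RGS1, RGS5, RGS6, RGS7, RGS8, RGS9, RGS11, RGS13, RGS18, RGS21 and RGS22 are not on the list, although RGS5, RGS7 and RGS9 in BEAS-2B cells and RGS9 and RGS11 in A549 cells reached a mean of 1 CPM (the count of a gene scaled to the total of its library, adjusted by a TMM factor) in at least one group.

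Messenger RNA was sequenced in a pair of wild-type human lung epithelial lines, BEAS-2B from bronchial epithelium and A549 from alveolar epithelium of a carcinoma. Cells on inserts, with medium below them only, met complete wood smoke, wood smoke that had passed a filter, or clean air for 4 h at the air-liquid interface. The inserts were seeded with 500000 BEAS-2B cells or 400000 A549 cells. Each line and exposure had 3 libraries, which makes 6 groups and 18 libraries. Each line is one established culture line kept without the other cells of an airway, and the labels do not say whether the libraries of a group came from separate cultures. The p-values then reflect only how these libraries vary, and that variation may be technical.

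Receptors of the G protein coupled class act by loading GTP onto the alpha subunit of a heterotrimeric G protein, and the signal ends when that subunit hydrolyses the GTP. RGS proteins bind the active alpha subunit and speed up that hydrolysis, so they shorten or damp the signal. The R4 class holds RGS2, RGS3, RGS4 and RGS16, the R12 class holds RGS10, RGS12 and RGS14, and the RZ class holds RGS17, RGS19 and RGS20. Several R4 genes are known to be induced quickly by signals that act through the same receptors, and in airway tissue RGS2 is known as a brake on the Gq signals that contract smooth muscle.

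Libraries held 28.5 M to 55.0 M counts assigned to genes in BEAS-2B cells and 14.4 M to 21.4 M in A549 cells. Reads that mapped to several places made up 7.69% to 31.7% of reads in BEAS-2B cells, with the highest shares in complete smoke 3 (31.7%) and filtered smoke 3 (19.2%), and 9.63% to 12% in A549 cells. Some reads met no exon on the counted strand, and these can lie in introns, on the other strand or between genes. They made up 1.08% to 8.50% with complete smoke, 0.95% to 2.33% with filtered smoke and 3.05% to 5.78% with clean air in BEAS-2B cells. Complete smoke 3 gave the 8.50% and had 54.4% of its reads assigned to genes, against 71.9% to 81.1% in the other BEAS-2B libraries. In A549 cells the reads that met no exon were 2.83% to 5.62%, 2.24% to 4.46% and 5.68% to 6.71% in the same order of groups. All 5 epithelial markers reached 1 CPM in every group. All 5 basal cell markers did so in BEAS-2B cells. Of 8 alveolar type 2 markers only 1 did in A549 cells and 2 did in BEAS-2B cells, so this count does not show the alveolar origin of A549. Summed, these 8 markers were 32.8 to 43.8 CPM in A549 cells and 6.92 to 9.24 CPM in BEAS-2B cells with clean air. The summed epithelial markers of BEAS-2B cells were 4607 to 11752 CPM with complete smoke, 6309 to 11292 CPM with filtered smoke and 2251 to 5593 CPM with clean air. That list did not move as one, since KRT18 (1.31 and 1.35 on the log2 scale) and KRT19 (1.40 and 1.51) rose with complete and filtered smoke while CDH1 fell by 1.29 and 1.37, and KRT8 (1.04 and 1.13) and EPCAM (0.13 and 0.17) did not pass. In the same cells the summed fibroblast markers, 3 of 5 of which reached 1 CPM, were 230 to 460 CPM with complete smoke, 355 to 497 CPM with filtered smoke and 500 to 927 CPM with clean air. The summed endothelial and mural markers were 4.88 to 8.02, 7.48 to 10.2 and 22.4 to 36.8 CPM in the same order of groups, nearly all from PDGFRB, while PECAM1, VWF and CLDN5 stayed below 0.2 CPM. In A549 cells the summed fibroblast markers were 10.1 to 21.2, 7.96 to 13.9 and 24.8 to 42.2 CPM. The part of these shifts in the values below was not tested, and in bulk RNA fewer cells of a type and less RNA per cell cannot be told apart.

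RGS2 and RGS16, both of the R4 class and both on chromosome 1, gave the largest log2 increases after smoke in each line. For that reason the 250 bases before their RefSeq start sites (GRCh38.p14) are shown. RGS10 and RGS19 also rose with either smoke in both lines. In BEAS-2B cells with complete smoke RGS16 (2.22) was close to RGS10 (2.07), had few counts and lost its call in some fits without 1 library. The RGS16 window is chr1:182604390-182604639 on the minus strand and the RGS2 window chr1:192808789-192809038 on the plus strand. Letters run 5′ to 3′ on the strand of the gene, and capitals mark GCGTG or its reverse complement CACGC, the core of the element bound by the aryl hydrocarbon receptor.
RGS16: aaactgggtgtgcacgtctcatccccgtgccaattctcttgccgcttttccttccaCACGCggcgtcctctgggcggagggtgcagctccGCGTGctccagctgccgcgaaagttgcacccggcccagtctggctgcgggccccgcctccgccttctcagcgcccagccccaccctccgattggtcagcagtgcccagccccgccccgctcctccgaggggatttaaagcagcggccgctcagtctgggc
RGS2: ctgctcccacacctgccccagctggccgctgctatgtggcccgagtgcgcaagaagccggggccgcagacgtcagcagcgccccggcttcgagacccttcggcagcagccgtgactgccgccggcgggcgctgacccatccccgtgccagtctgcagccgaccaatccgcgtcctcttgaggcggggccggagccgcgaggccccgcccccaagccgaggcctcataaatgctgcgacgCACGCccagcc
The RGS16 window holds 2 of these cores, at 194 and 160 bases before the start, and the RGS2 window holds 1, at 11 bases before it. Over both strands, 32.2% of 35116 RefSeq windows of this length hold a GCGTG. A full cAMP response element (TGACGTCA, in 1.65% of all windows), an AP-1 site (TGANTCA, 6.57%) or an EGR site (GCGGGGGCG, 4.72%) was in neither window. The search over the RGS genes covered RefSeq windows of 9 of the 10 and left out RGS20, whose letters were not examined. Of the 22 windows searched, GCGTG was in 9, in 6 genes. The EGR letters were in 3 windows, of RGS10, RGS12 and RGS19, and the cAMP and AP-1 letters were in none of the 22. Such matches describe the letters only and show no binding.

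In unexposed cells the lines differed in which RGS gene was most abundant. Levels between genes are compared as CPM per kb of exon, with counts scaled by TMM factors over all 18 libraries. The length is that of all annotated exons of a gene together, 1.25 kb for RGS10 and 13.8 kb for RGS3, whichever form the cells make. The order depends on it. By CPM alone, RGS3 (21.3 ± 5.08) was above RGS10 (7.09 ± 0.28) in A549 cells with clean air. With clean air, BEAS-2B cells had most RGS4 (12.5 ± 1.81 CPM per kb, SD, n = 3) and RGS10 (11.1 ± 4.83), whose ranges overlapped. RGS19 (3.41 ± 0.84) came next, followed by RGS20 (2.06 ± 0.62) and RGS2 (1.77 ± 0.18), which overlapped each other. The other 5 lay below 1, in the order RGS12, RGS3, RGS17, RGS14 and RGS16, with overlapping neighbours only in RGS17 and RGS14. A549 cells with clean air had most RGS2 (16.5 ± 2.07 CPM per kb), then RGS10 (5.66 ± 0.22), RGS20 (3.16 ± 0.87), RGS19 (2.27 ± 0.47), RGS3 (1.54 ± 0.37) and RGS17 (1.39 ± 0.19). Each of the last 4 overlapped its neighbour, while RGS12, RGS14 and RGS16 followed below 1 with no overlap. RGS4 had no count in any A549 library with clean air, and a count of 0 allows up to 3 counts in a library.

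With complete and filtered smoke RGS10 led per kb in BEAS-2B cells, at 47.2 ± 15.5 and 43.4 ± 11 CPM per kb, ahead of RGS4 (24.3 ± 1.28 and 23.0 ± 3.51) and RGS2 (17.5 ± 7.22 and 20.0 ± 8.85), the last pair overlapping. By CPM alone RGS4 (118 ± 6.17 and 111 ± 17.0) was above RGS10 (59.1 ± 19.4 and 54.4 ± 13.7). RGS2 kept the first place in A549 cells, at 51.6 ± 12.7 and 71.5 ± 9.12 CPM per kb, and RGS10 the second, at 12.9 ± 4.05 and 14.8 ± 3.81. RGS16, next to last with clean air at 0.094 ± 0.045, stood behind RGS20 with complete smoke (2.01 ± 0.39) and behind RGS19 with filtered smoke (3.64 ± 1.44), with ranges that overlapped both neighbours. RGS2 made up 66.3% of the summed CPM per kb of the 10 genes in A549 cells with complete smoke and 69.9% with filtered smoke, against 51.8% with clean air. In BEAS-2B cells its shares were 16.3% and 18.8%, against 5.30%.

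**Figure D1:**
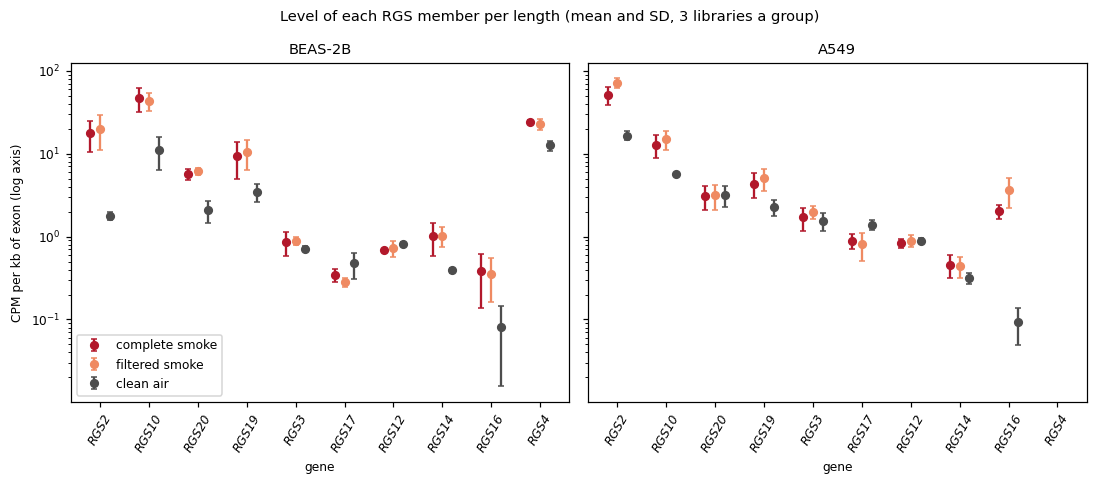
CPM per kb of exon on a log axis for each of the 10 RGS genes in BEAS-2B cells (left) and A549 cells (right); points are means of 3 libraries and bars their SD, for complete smoke, filtered smoke and clean air. RGS2 is highest in A549 cells in every group, RGS4 and RGS10 lead in BEAS-2B cells with clean air, and RGS4 in A549 cells, with 0 to 3 counts a library, is not drawn.

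The first question was how complete smoke changed these genes in BEAS-2B cells. RGS2, RGS4, RGS10, RGS14, RGS16, RGS19 and RGS20 rose, 7 of the 10, and none fell (edgeR quasi-likelihood test on the 9 libraries of the line, Benjamini-Hochberg adjusted p under 0.05 over all genes tested). Over 16356 genes, 21.5% rose and 19.5% fell, and the median log2 change was -0.06, against 1.41 over the 10. The increases ran across all 3 classes, from 0.98 on the log2 scale for RGS4 to 3.32 for RGS2.

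RGS2, which acts mainly on Gq alpha subunits (chromosome 1, 192809039 to 192812283 in GRCh38), measured 20.4, 50.3 and 39.6 CPM in BEAS-2B libraries with complete smoke, against 4.09, 3.32 and 3.71 CPM with clean air. Every smoke library lay above every clean-air library, and complete smoke 1 was the lowest of the exposed. The log2 fold change was 3.32 ± 0.45 (SE; adjusted p = 0.00223). RGS4, an inhibitor of Gi and Gq signals whose protein is kept scarce by N-terminal degradation (chromosome 1, 163068775 to 163076802), measured 117, 112 and 124 CPM, against 51.8, 69.3 and 61.0 CPM with clean air. The groups did not overlap (0.98 ± 0.18, adjusted p = 0.00529). RGS16, an inhibitor of Gi and Gq signals (chromosome 1, 182598623 to 182604408), had few counts, 18, 45 and 17 with complete smoke, against 4, 14 and 3 with clean air. That is 0.549, 1.60 and 0.624 CPM, against 0.126, 0.375 and 0.084 CPM, with complete smoke 2 and clean air 2 highest in their groups (2.22 ± 0.69, adjusted p = 0.0311). RGS3, the remaining R4 gene, which has long and short forms (chromosome 9, 113444731 to 113597743), measured 14.3, 13.4 and 7.49 CPM, against 10.4, 10.2 and 9.01 CPM, with overlapping groups (0.25 ± 0.24, adjusted p = 0.420).

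In the R12 class, RGS10, a short protein that acts on Gi alpha subunits (chromosome 10, 119499828 to 119542708), measured 79.4, 56.9 and 40.9 CPM with complete smoke, against 20.8, 11.5 and 9.43 CPM with clean air. Groups stood clear of each other, with complete smoke 3 the lowest exposed and clean air 1 the highest unexposed library (2.07 ± 0.37, adjusted p = 0.00465). RGS14, which also carries Ras-binding domains (chromosome 5, 177357837 to 177372601), measured 4.21, 5.28 and 2.06 CPM, against 1.45, 1.61 and 1.41 CPM (1.37 ± 0.35, adjusted p = 0.0148). Again complete smoke 3 was the exposed library nearest to clean air. RGS12, a large relative of RGS14 with the same domains (chromosome 4, 3293028 to 3439913), measured 9.64, 9.41 and 9.14 CPM, against 10.8, 11.4 and 11.6 CPM. Its groups did not overlap, yet the change did not pass (-0.25 ± 0.20, adjusted p = 0.326).

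In the RZ class, RGS20, a regulator of Gz (chromosome 8, 53851808 to 53959303), measured 20.3, 19.0 and 15.2 CPM with complete smoke, against 8.59, 6.53 and 4.64 CPM with clean air. All exposed libraries were above all unexposed ones (1.46 ± 0.26, adjusted p = 0.00465). RGS19, which binds Gi alpha subunits and the adaptor GIPC1 (chromosome 20, 64073181 to 64079988), measured 26.3, 21.7 and 8.92 CPM, against 8.88, 6.16 and 5.74 CPM. Complete smoke 3 was barely above clean air 1 (1.44 ± 0.42, adjusted p = 0.0241). RGS17, which acts on Gz and Gi (chromosome 6, 153004459 to 153131249), measured 2.81, 2.21 and 3.19 CPM, against 2.27, 4.39 and 4.56 CPM, and its groups overlapped (-0.41 ± 0.29, adjusted p = 0.258).

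Leaving out 1 library at a time kept the calls of RGS2, RGS4, RGS10 and RGS20 in all 6 fits. RGS14 lost its call in 3 of the 6 (without complete smoke 2, clean air 2 or clean air 3, adjusted p up to 0.0599), RGS16 in 3 (without clean air 1, complete smoke 2 or clean air 3, up to 0.121) and RGS19 in 4 (without complete smoke 1, complete smoke 2, clean air 2 or clean air 3, up to 0.0886). Without complete smoke 3 and clean air 1 together all 7 rose, RGS3 rose too (0.58, adjusted p = 0.0246, in a range of 0.0246 to 0.834 over its alternatives) and RGS17 fell (-0.78, adjusted p = 0.0172, range 0.0172 to 0.561). That fit called 63.5% of all genes tested. For RGS3, RGS10, RGS17, RGS19 and RGS20 complete smoke 3 was the exposed library furthest toward clean air. Clean air 1 was the unexposed one furthest toward smoke, so leaving out this pair widened their contrasts.

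**Figure D2:**
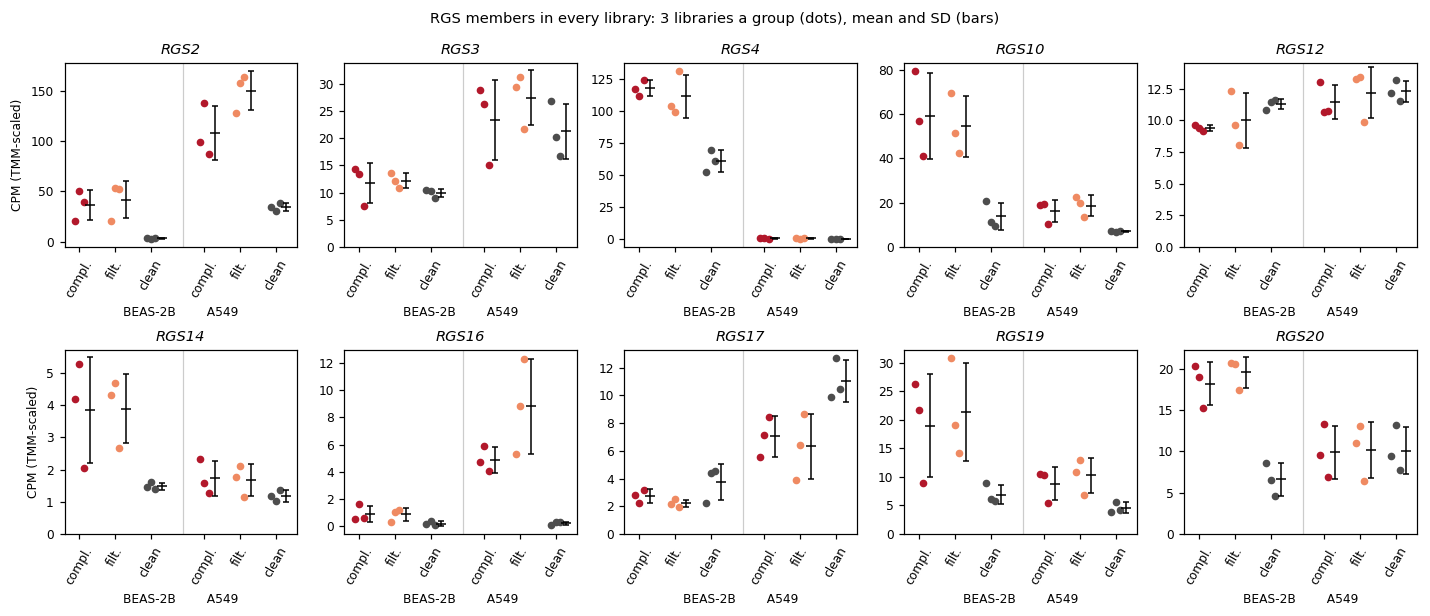
TMM-scaled CPM of each RGS gene in every library, 1 panel a gene, with complete smoke, filtered smoke and clean air from left to right in BEAS-2B and then A549 cells; dots are libraries and bars the mean and SD of 3. RGS2 and RGS10 lie above clean air in every exposed library of both lines, RGS20 does so in BEAS-2B cells, and RGS4 is near 0 throughout A549 cells.

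Filtered smoke was compared with clean air to see the response to the aerosol that passed the filter. In BEAS-2B cells 7 genes rose, RGS2, RGS4, RGS10, RGS14, RGS16, RGS19 and RGS20, and none fell, where 23.6% of all tested genes rose and 24.9% fell (edgeR). The median log2 change was 1.46 over the 10 genes and -0.07 over all genes tested. This comparison shares its clean-air libraries with the one on complete smoke, so the likeness of the lists is no separate evidence.

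RGS2 measured 20.5, 53.1 and 52.2 CPM with filtered smoke in BEAS-2B cells, against the 4.09, 3.32 and 3.71 CPM with clean air (log2 fold change 3.49 ± 0.45, SE, adjusted p = 0.00241). As with complete smoke, library 1 was the lowest exposed one. RGS10 measured 69.4, 51.5 and 42.3 CPM, against 20.8, 11.5 and 9.43 CPM (1.94 ± 0.37, adjusted p = 0.00552). RGS20 measured 20.7, 20.5 and 17.4 CPM, against 8.59, 6.53 and 4.64 CPM (1.55 ± 0.26, adjusted p = 0.00414). For all 3 genes every exposed library was above every unexposed one.

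RGS4 measured 104, 99.3 and 131 CPM with filtered smoke, against 51.8, 69.3 and 61.0 CPM with clean air (0.88 ± 0.18, adjusted p = 0.00723). RGS19 measured 30.9, 19.1 and 14.2 CPM, against 8.88, 6.16 and 5.74 CPM (1.61 ± 0.42, adjusted p = 0.0148). RGS14 measured 4.33, 4.69 and 2.67 CPM, against 1.45, 1.61 and 1.41 CPM (1.38 ± 0.34, adjusted p = 0.0127). These groups did not overlap either. RGS16 did overlap, with 8, 43 and 43 counts against 4, 14 and 3 (2.14 ± 0.69, adjusted p = 0.0300). RGS17 measured 2.16, 2.50 and 1.97 CPM, against 2.27, 4.39 and 4.56 CPM, a value just short of the threshold (-0.75 ± 0.29, adjusted p = 0.0553). With the sample number as a block RGS17 passed (-0.72, adjusted p = 0.0271, range 0.00428 to 0.184 over its alternatives), as did 66.9% of all genes. The DESeq2 Wald test called RGS17 too. RGS3 stood at 0.30 ± 0.24 (adjusted p = 0.327) and RGS12 at -0.18 ± 0.20 (adjusted p = 0.457).

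The calls of RGS2, RGS4, RGS10 and RGS20 held in all 6 fits that each left out 1 library. That of RGS14 was lost without clean air 3 (adjusted p = 0.0524, in a range of 0.000448 to 0.0858), that of RGS19 in 3 fits (without filtered smoke 1, clean air 2 or clean air 3, up to 0.0597), that of RGS16 in 4 (without clean air 1, clean air 3, filtered smoke 2 or filtered smoke 3, up to 0.103), and RGS17 passed without clean air 1 (-0.97, adjusted p = 0.0113). Without clean air 1 and complete smoke 3 together 6 genes rose, RGS16 not among them (2.0, adjusted p = 0.0537, range 0.00242 to 0.116), and RGS17 fell (-0.95, adjusted p = 0.00428), in a fit that called 63.4% of all genes. Clean air 1 was the clean-air library of RGS17 nearest to filtered smoke, so leaving it out widened that contrast.

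In BEAS-2B cells the size of every change depended on the scaling, because exposed libraries had lower TMM factors (0.718 to 1.0) than clean-air libraries (1.14 to 1.52). Scaled by library size alone, the median change of all genes was -0.75 with complete smoke and -0.74 with filtered smoke, and only 18.3% of the genes called were higher in each, against 52.5% and 48.7% with TMM. With that shift left in, RGS2 (2.7 and 2.88), RGS10 (1.41 and 1.30) and RGS20 (0.81 and 0.91) still rose with complete and filtered smoke. RGS19 rose with filtered smoke (0.92) and not with complete smoke (0.73, adjusted p = 0.0771). RGS4 (0.29 and 0.20), RGS14 (0.65 and 0.69) and RGS16 (1.53 and 1.5) no longer passed. RGS12 (-0.93 and -0.88) and RGS17 (-1.13 and -1.47) passed as lower, and RGS3 changed sign without passing (-0.46 and -0.38). The split was then 3 higher and 2 lower with complete smoke and 4 higher and 2 lower with filtered smoke, where 51.1% and 55.5% of all genes were called.

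**Figure D3:**
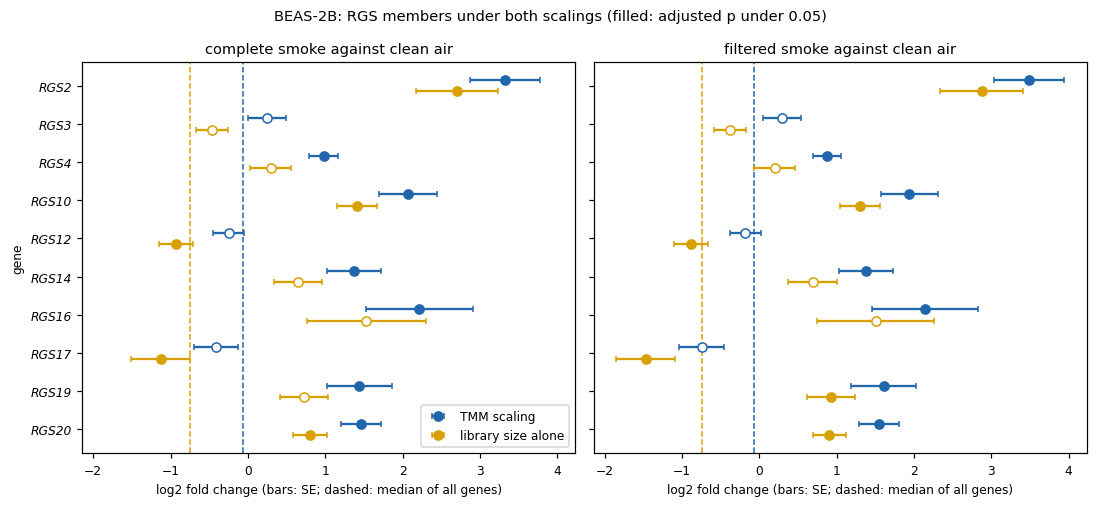
Log2 fold change against clean air in BEAS-2B cells for each RGS gene, complete smoke on the left and filtered smoke on the right, under TMM scaling and under library size alone; bars are SE, filled points pass an adjusted p of 0.05 and dashed lines mark the median of all genes (-0.06 and -0.07 with TMM, -0.75 and -0.74 with library size alone). RGS2, RGS10 and RGS20 are above 0 and filled in every case, whereas RGS4 and RGS14 are filled with TMM only.

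In A549 cells complete smoke raised RGS2, RGS10, RGS16 and RGS19, 4 of the 9 genes tested, and none fell, where 15.6% of 15244 genes rose and 16.9% fell (edgeR). RGS4 was below the count minimum. The median log2 change was 0.53 over the 9 genes and 0.02 over all genes tested. RGS16 measured 4.70, 5.91 and 4.04 CPM with complete smoke, against 0.103, 0.272 and 0.306 CPM with clean air, or 79, 142 and 85 counts against 2, 7 and 6. The groups were far apart (log2 fold change 4.38 ± 0.44, SE, adjusted p = 0.000914), although the small counts with clean air leave the fold uncertain.

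RGS2 measured 99.2, 138 and 87.2 CPM in A549 libraries with complete smoke, against 34.6, 30.2 and 38.8 CPM with clean air (1.65 ± 0.20, adjusted p = 0.00121). RGS10 measured 18.8, 19.3 and 10.3 CPM, against 7.39, 6.85 and 7.03 CPM (1.19 ± 0.26, adjusted p = 0.0116). Neither gene's groups overlapped. RGS19 measured 10.6, 10.4 and 5.46 CPM, against 3.88, 5.68 and 4.23 CPM, so that complete smoke 3 lay within the clean-air range (0.94 ± 0.31, adjusted p = 0.0411).

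RGS17 measured 5.53, 7.15 and 8.45 CPM with complete smoke, against 9.87, 12.7 and 10.4 CPM with clean air. Its groups did not overlap, but the change did not pass (-0.63 ± 0.27, adjusted p = 0.0907). With the sample number as a block it did (-0.66, adjusted p = 0.00819, range 0.00819 to 0.260 over its alternatives), as did 54.6% of all genes. RGS17 also passed with no low-count filter and with only the 6 libraries compared, and in none of the fits that left out 1 library. RGS20 measured 9.52, 13.3 and 6.89 CPM, against 9.41, 13.2 and 7.69 CPM, with libraries of the same number close to each other (-0.02 ± 0.31, adjusted p = 0.966). RGS3 stood at 0.15 ± 0.26 (adjusted p = 0.683), RGS12 at -0.09 ± 0.17 (adjusted p = 0.681) and RGS14, with 27 to 39 counts against 23 to 27, at 0.53 ± 0.32 (adjusted p = 0.207). RGS4 had 2, 1 and 0 counts with complete smoke and 0 in each clean-air library, under the floor of 3 counts, so no fold is given.

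RGS2 and RGS16 kept their calls in all 6 fits that left out 1 A549 library. RGS10 lost its call without complete smoke 2 (adjusted p = 0.0541, range 3.22e-06 to 0.0541), and RGS19 lost it in 5 of the 6, every one but the fit without complete smoke 3 (adjusted p up to 0.140), and with library size alone (0.81, adjusted p = 0.0614), where the median of all genes was -0.10 and 34.7% of called genes were higher, against 47.9% with TMM.

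With filtered smoke A549 cells showed the same 4 genes higher, RGS2, RGS10, RGS16 and RGS19, and RGS17 lower, where 23.1% of all tested genes rose and 23.5% fell (edgeR). The clean-air libraries are shared with the preceding comparison. The median log2 change was 0.51 over the 9 genes and 0.01 over all genes. RGS16 measured 5.34, 8.81 and 12.3 CPM with filtered smoke, against 0.103, 0.272 and 0.306 CPM with clean air, or 87, 187 and 246 counts against 2, 7 and 6 (log2 fold change 5.23 ± 0.43, SE, adjusted p = 0.000351). Its exposed libraries differed among themselves more than those with complete smoke did.

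RGS2 measured 128, 158 and 164 CPM in A549 libraries with filtered smoke, against 34.6, 30.2 and 38.8 CPM (2.12 ± 0.20, adjusted p = 0.000463). RGS10 measured 22.6, 19.7 and 13.3 CPM, against 7.39, 6.85 and 7.03 CPM (1.39 ± 0.27, adjusted p = 0.00394). RGS19 measured 10.9, 13 and 6.87 CPM, against 3.88, 5.68 and 4.23 CPM (1.16 ± 0.31, adjusted p = 0.0134). The groups of these 3 genes did not overlap. RGS17 measured 3.93, 6.46 and 8.63 CPM, against 9.87, 12.7 and 10.4 CPM, also without overlap (-0.79 ± 0.27, adjusted p = 0.0366). RGS3 stood at 0.38 ± 0.26 (adjusted p = 0.253) and passed with the sample number as a block (0.38, adjusted p = 0.0345, range 0.0345 to 0.540), where 61.7% of all genes did. RGS12 (-0.01 ± 0.17, adjusted p = 0.983), RGS14 (0.51 ± 0.32, adjusted p = 0.208) and RGS20 (0.01 ± 0.31, adjusted p = 0.976) did not pass, and RGS4 had 3, 0 and 2 counts.

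RGS2, RGS10 and RGS16 passed in all 6 fits without 1 library. RGS19 lost its call without clean air 1 or filtered smoke 2 (adjusted p up to 0.0594) and RGS17 in 5 of the 6, every one but the fit without filtered smoke 3 (up to 0.118), while library size alone changed no call (median of all genes -0.15, 37.9% of called genes higher, against 49.6%).

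**Figure D4:**
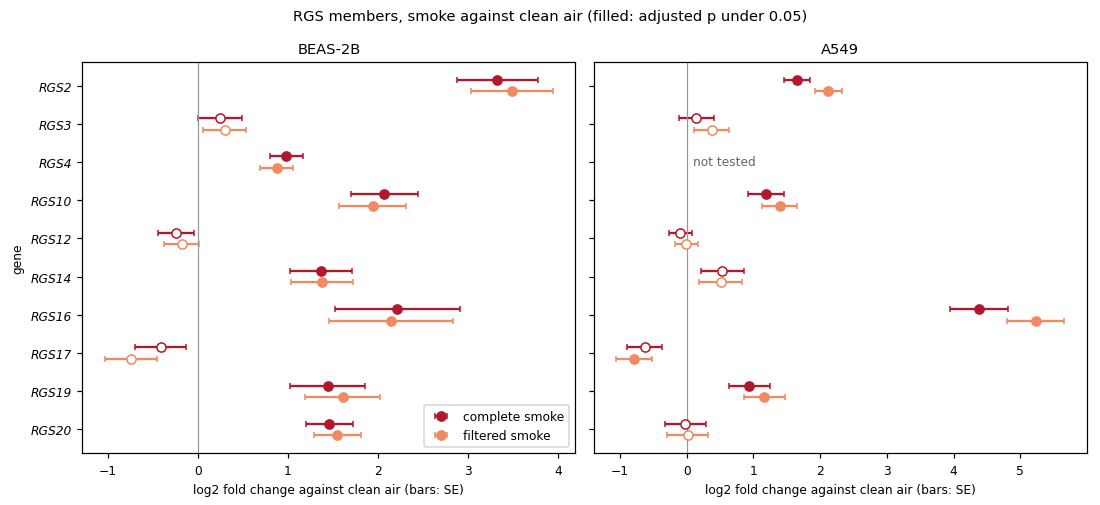
Log2 fold change against clean air for each RGS gene, in BEAS-2B cells (left) and A549 cells (right), with complete smoke above filtered smoke in each row; bars are SE and filled points pass an adjusted p of 0.05. RGS16 has the largest change in A549 cells (4.38 and 5.23), RGS2 the largest in BEAS-2B cells (3.32 and 3.49), and RGS20 and RGS14 are filled in BEAS-2B cells only, although neither differed between the lines past an adjusted p of 0.05 (0.0836 and 0.0941 for RGS20, 0.396 and 0.447 for RGS14).

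Complete smoke was set against filtered smoke to ask whether what the filter held back mattered for these genes. No RGS gene passed in either line, and 0% of all genes did so in BEAS-2B cells and 0% in A549 cells (edgeR). At an unadjusted p under 0.05 none of the 10 genes stood out in BEAS-2B cells, among 222 of 16356 genes (1.36%). In A549 cells 2 of the 9 did, among 236 of 15244 genes (1.55%). The DESeq2 Wald test called no RGS gene in either line, and over all genes it called 2 in A549 cells and 0 in BEAS-2B cells. The pair in A549 cells was RGS16, with 4.70, 5.91 and 4.04 CPM with complete smoke against 5.34, 8.81 and 12.3 CPM with filtered smoke (-0.86 ± 0.31), and RGS2, with 99.2, 138 and 87.2 CPM against 128, 158 and 164 CPM (-0.47 ± 0.19). Both groups of both genes overlapped and both had an adjusted p of 0.998.

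The lines were then compared for the size of the response, as an interaction of line and exposure fitted over all 18 libraries. The lines also differed in the number of cells seeded, which cannot be told apart from the line. None of the 10 RGS genes passed for complete smoke, where 1.74% of 17703 genes did, and none for filtered smoke, where 0.825% did (edgeR). At an unadjusted p under 0.05 there were 3 with complete smoke, where 17.3% of all genes were, and 4 with filtered smoke, where 13.8% were. One of the 4 was RGS4, whose 0 to 3 counts in A549 libraries give no usable fold, so it is set aside. The DESeq2 Wald test called RGS2 and RGS20 with complete smoke, among 2.43% of the 37637 genes it fitted, and RGS16 and RGS20 with filtered smoke, among 1.68%.

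RGS20 rose in BEAS-2B cells and stood near 0 in A549 cells, and the response in BEAS-2B minus A549 was 1.49 ± 0.42 on the log2 scale with complete smoke (SE; adjusted p = 0.0836) and 1.56 ± 0.42 with filtered smoke (adjusted p = 0.0941). RGS2 rose in both, by 1.66 ± 0.47 more in BEAS-2B cells with complete smoke (adjusted p = 0.0855) and 1.38 ± 0.47 more with filtered smoke (adjusted p = 0.185), starting at 3.71 ± 0.39 CPM with clean air, where A549 cells had 34.5 ± 4.33 CPM (SD, n = 3). RGS16 went the other way, with a difference of -2.19 ± 0.90 (adjusted p = 0.223) and -3.10 ± 0.90 (adjusted p = 0.114). RGS10 differed by 0.91 ± 0.46 (adjusted p = 0.321) and 0.58 ± 0.46 (adjusted p = 0.583). RGS14, called in BEAS-2B cells alone, differed by 0.84 ± 0.50 (adjusted p = 0.396) and 0.88 ± 0.50 (adjusted p = 0.447), so no difference between the lines was shown for it.

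The labels give sample numbers but do not say that equal numbers are pairs. By the correlation rule given below, filtered smoke and clean air were taken as paired in both lines, with BEAS-2B number 2 the weakest pair (r = 0.16). On that assumption, with the number as a block, the filtered-smoke difference passed for RGS2 (1.26, adjusted p = 0.0335), RGS16 (-3.05, adjusted p = 0.00843) and RGS20 (1.61, adjusted p = 0.000200). That fit called 15.5% of all genes, against 0.825% without the block. Over all alternatives these adjusted p ran from 0.0201 to 0.366, from 0.000579 to 0.413 and from 0.000200 to 0.276. Without BEAS-2B clean air 1 alone RGS20 passed with complete smoke (1.73, adjusted p = 0.0399, range 0.000279 to 0.243). Without that library and BEAS-2B complete smoke 3 together RGS2 (1.68, adjusted p = 0.0379, range 0.00144 to 0.205), RGS10 (1.52, 0.0189, range 0.00684 to 0.623) and RGS20 (1.84, 0.0124) passed with complete smoke and RGS20 with filtered smoke (1.80, 0.0302), where 21.5% and 5.16% of all genes passed. Leaving out this pair widened the BEAS-2B contrast of RGS10 and RGS20 with complete smoke.

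**Figure D5:**
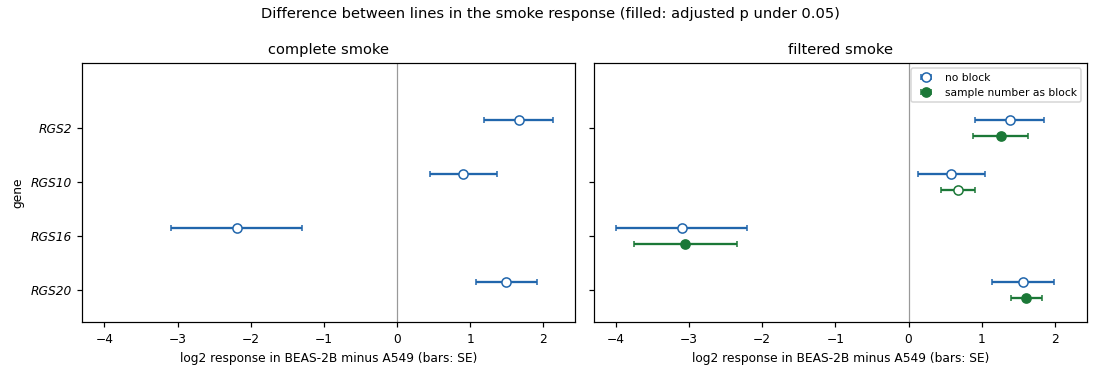
Log2 response to smoke in BEAS-2B minus A549 cells for RGS2, RGS10, RGS16 and RGS20, with complete smoke on the left and filtered smoke on the right; bars are SE and filled points pass an adjusted p of 0.05. Without a block no point is filled, and with the sample number as a block, shown for filtered smoke, RGS2 (1.26), RGS16 (-3.05) and RGS20 (1.61) are.

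The RGS genes differ widely in their span along the genome, a feature looked at after their values were seen. RGS2, RGS4, RGS16 and RGS19 span 3.25 to 8.03 kb, RGS10 and RGS14 span 42.9 and 14.8 kb, and RGS3, RGS12, RGS17 and RGS20 span 107 to 153 kb. Over all protein-coding genes tested, those under 10 kb had a median log2 change of 0.71 and 0.78 with complete and filtered smoke in BEAS-2B cells and 0.55 and 0.67 in A549 cells. Those over 100 kb had medians of -0.57 and -0.73 in BEAS-2B cells and -0.54 and -0.59 in A549 cells. Of genes under 10 kb 40.8% and 46.2% rose in BEAS-2B cells and 36.4% and 52.0% in A549 cells. RGS20, at 107 kb, rose in BEAS-2B cells, where 8.26% and 9.09% of genes over 100 kb did. The part of gene span in the changes of the RGS genes was not tested.

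Over the 18 libraries, with the mean of each line removed, the genes most like RGS2 in log2 CPM were CREM (r = 0.96), ZFAND2A (0.96), PMPCB (0.95), EIF3E (0.95) and HADHB (0.95), out of 12178 protein-coding genes. CREM, a transcription factor that answers cAMP, averaged 13.3 ± 0.61 and 12.8 ± 0.84 CPM with complete and filtered smoke, against 8.42 ± 0.51 CPM with clean air, in BEAS-2B cells (SD, n = 3). In A549 cells it averaged 35.8 ± 1.20 and 38.4 ± 1.43 CPM, against 25.5 ± 0.57 CPM. For RGS16 the closest were EGR2 (r = 0.96), CXCR4 (0.96), SRSF5 (0.96), SRSF2 (0.96) and HES1 (0.96). RGS2 and RGS16 had r = 0.78 with each other. All these values share the contrast of smoke and clean air within each line, so they describe a common pattern over libraries.

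Most of the other numbered RGS genes had few counts or none, but some exceeded genes on the list. In A549 cells with clean air RGS9 averaged 4.84 ± 0.69 CPM, above RGS14 (1.19 ± 0.18 CPM). RGS7, an R7 class gene best known from neurons, rose in BEAS-2B cells, with means of 5.16 ± 2.01 and 3.70 ± 1.08 CPM with complete and filtered smoke, against 1.14 ± 0.42 CPM with clean air (log2 fold change 2.18, adjusted p = 0.00559, and 1.67, adjusted p = 0.0121, edgeR). RGS9, known from photoreceptors and striatum, rose with complete smoke in BEAS-2B cells (0.98, adjusted p = 0.0418). RGS11 rose in A549 cells (0.69, adjusted p = 0.0341, and 0.87, adjusted p = 0.0101), with means of 4.16 ± 0.88 and 4.67 ± 0.49 CPM against 2.58 ± 0.29 CPM. Of 11 such genes 3 were tested in each line.

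The G protein alpha subunits on which RGS proteins act moved in both directions. For this list and those that follow, the shares of all genes that rose and fell were 21.5% and 19.5% with complete smoke and 23.6% and 24.9% with filtered smoke in BEAS-2B cells. In A549 cells they were 15.6% and 16.9%, then 23.1% and 23.5%. The lists are short, and their counts are read as description only. Of 11 tested in BEAS-2B cells 1 rose and 5 fell with complete smoke, and 2 rose and 4 fell with filtered smoke. In A549 cells 1 rose and 2 fell of 11 with complete smoke, and 2 rose and 3 fell with filtered smoke. GNAQ, the Gq subunit, fell by 1.56 on the log2 scale with filtered smoke in BEAS-2B cells (adjusted p = 0.0132) and by 1.07 and 1.13 with complete and filtered smoke in A549 cells (adjusted p = 0.00990 and 0.00465). GNA13, a subunit of the G12 class, fell by 1.21 and 1.55 in BEAS-2B cells (adjusted p = 0.0376 and 0.0149) and by 0.77 and 1.19 in A549 cells (adjusted p = 0.0378 and 0.00522). GNAI2, a Gi subunit, rose in A549 cells (0.62, adjusted p = 0.0317, and 0.68, adjusted p = 0.0153), and GNA15, a promiscuous Gq relative, rose in BEAS-2B cells (1.89, adjusted p = 0.0117, and 1.91, adjusted p = 0.0102). Among beta and gamma subunits 2 rose and 2 fell of 11 in BEAS-2B cells with either smoke, GNG5 by 1.71 and 1.93. Of 10 in A549 cells 1 fell with complete smoke, and 1 rose and 2 fell with filtered smoke. GNG12 fell by 0.73 and 1.06 in BEAS-2B cells (adjusted p = 0.0483 and 0.0126) and by 0.41 and 0.52 in A549 cells (adjusted p = 0.0430 and 0.0127).

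Among G protein coupled receptors of the airway, 4 rose and 7 fell of 29 in BEAS-2B cells with complete smoke, and 5 rose and 8 fell with filtered smoke. In A549 cells 3 rose and 7 fell of 27 with complete smoke, and 5 rose and 11 fell with filtered smoke. In BEAS-2B cells these counts lie near the shares of all genes (21.5% higher and 19.5% lower, then 23.6% and 24.9%). CXCR4, a Gi-coupled chemokine receptor, rose in A549 cells by 3.26 ± 0.34 and 3.89 ± 0.34 (adjusted p = 0.00101 and 0.000351). In BEAS-2B cells it rose by 1.32 and 1.27 (adjusted p = 0.0222 and 0.0217). Its response to filtered smoke was smaller in BEAS-2B than in A549 cells (-2.60 ± 0.51, adjusted p = 0.0239), while the difference with complete smoke did not pass (-1.93 ± 0.51, adjusted p = 0.0674). BDKRB2, the constitutive bradykinin receptor, fell in BEAS-2B cells by 1.57 and 1.81 (adjusted p = 0.00227 and 0.00217), while BDKRB1, its inducible relative, rose by 1.87 and 1.76 (adjusted p = 0.0157 and 0.0168). BDKRB2 fell in A549 cells too (-1.50, adjusted p = 0.0191, and -1.48, adjusted p = 0.0128), where BDKRB1 did not pass.

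Downstream effectors are the cyclases, phospholipases, kinases and phosphodiesterases that G proteins steer. In BEAS-2B cells 1 rose and 4 fell of 16 with complete smoke, and 1 rose and 7 fell with filtered smoke. In A549 cells 1 rose and 8 fell of 15, and 1 rose and 7 fell. Over all genes 19.5% and 24.9% fell in BEAS-2B cells and 16.9% and 23.5% in A549 cells. PDE4D, which degrades cAMP, fell by 1.34 and 1.45 in BEAS-2B cells (adjusted p = 0.0206 and 0.0139) and by 1.51 and 1.70 in A549 cells (adjusted p = 0.00711 and 0.00288). PLCB3, one of the phospholipases that Gq activates, rose in A549 cells (0.78, adjusted p = 0.0185, and 0.84, adjusted p = 0.00908). Its relative PLCB4 fell there (-0.74, adjusted p = 0.0205, and -0.55, adjusted p = 0.0413), and PLCB1 did not pass. Receptor kinases and arrestins had 1 higher and 2 lower of 7 in BEAS-2B cells with complete smoke and 1 and 1 with filtered smoke, and 0 and 2, then 1 and 2, in A549 cells. GRK6 rose in BEAS-2B cells (1.27, adjusted p = 0.0224, and 1.41, adjusted p = 0.0138) and with filtered smoke in A549 cells (0.87, adjusted p = 0.0221). ARRB1, an arrestin, fell by 1.27 and 1.28 in A549 cells (adjusted p = 0.00233 and 0.00143).

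Proteins that remove RGS2, RGS4 and RGS16 were also measured as mRNA. Of 8 genes of the N-degron route and of RGS2 turnover, none rose and 2 fell in BEAS-2B cells with complete smoke, and 3 fell with filtered smoke. In A549 cells 1 rose and 4 fell with either smoke. The BEAS-2B counts are close to the 19.5% and 24.9% of all genes that fell, and in A549 cells 16.9% and 23.5% of all genes fell. UBR2, a ligase that recognises N-degrons such as that of RGS4, fell by 1.58 and 1.63 in BEAS-2B cells (adjusted p = 0.00546 and 0.00495) and by 1.28 and 1.42 in A549 cells (adjusted p = 0.0122 and 0.00505). UBR1, its relative, fell by 1.22 and 1.44 in BEAS-2B cells and by 0.93 and 1.09 in A549 cells. FBXO44, known for targeting RGS2 to degradation, rose in A549 cells (0.75, adjusted p = 0.0107, and 0.96, adjusted p = 0.00268). Among 9 other proteins with an RGS-like domain, 3 fell and none rose in BEAS-2B cells with complete smoke, 5 fell and 1 rose with filtered smoke, and in A549 cells 5 fell and 1 rose, then 6 and 1. ARHGEF1, an exchange factor that binds the G13 alpha subunit, rose in A549 cells (0.77, adjusted p = 0.0488, and 1.02, adjusted p = 0.0128) and with filtered smoke in BEAS-2B cells (0.76, adjusted p = 0.0337). ARHGEF11 fell by 0.97 and 1.07 in BEAS-2B cells and by 0.83 and 0.93 in A549 cells. AKAP10 fell by 0.73 and 0.66, then by 0.78 and 0.80. ARHGEF11 and AKAP10 passed as lower with either smoke in both lines. Non-receptor modulators had 2 higher and 2 lower of 6 in BEAS-2B cells with complete smoke and 3 and 2 with filtered smoke, GIPC1 among those that rose (1.26, adjusted p = 0.0228, and 1.48, adjusted p = 0.0121), and 1 and 1 of 5 in A549 cells with either smoke. RIC8B fell by 1.15 with either smoke in BEAS-2B cells (adjusted p = 0.00236 and 0.00264). In A549 cells RIC8B fell by 0.64 and 0.57 (adjusted p = 0.0213 and 0.0220).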

How the data were processed

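The authors deposited counts of reads per gene. The submitters' processing notes name STAR 2.7.10b and GRCh38, and the labels' protocols name TRIzol for the RNA and a TruSeq mRNA kit for the libraries. Of the 3 columns of counts, the larger stranded one was used, which exceeded its opposite by a ratio of 11.7 to 17.1 in the 18 libraries. The 4 summary lines were left out of library sizes. No exon of an RGS gene here overlaps an exon of another gene in GENCODE v29, which gave positions and exon lengths.

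The 10 genes and the pathway and marker lists were chosen with earlier results of these data known. Genes passed filterByExpr, were scaled by TMM and tested with the edgeR 4.0.16 quasi-likelihood test in R 4.3.3 on the 9 libraries of a line, or on all 18 for differences between lines, with Benjamini-Hochberg adjustment at 0.05. All adjusted p-values are from edgeR unless DESeq2 1.42.0 is named. SE comes from the test statistic. Printed CPM uses TMM factors of the 18-library fit, so ratios of printed CPM differ slightly from fitted folds. The biological coefficient of variation was 0.299 in BEAS-2B and 0.209 in A549 cells. Every RGS gene is described. From each pathway list the rule names up to 2 of the highest and 2 of the lowest passing genes with a mean of at least 1 CPM. A few are left out for length. Sequences are from RefSeq.

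Sample numbers were taken as pairs where deviations from group means correlated over 0.1 in every same-numbered pair. That held in A549 cells (9 pairs, 0.22 to 0.80) and in BEAS-2B cells except for complete smoke and clean air, where number 2 gave -0.13. Alternatives were other scalings, low-count filters and tests, the block, the count column that ignores strand, the 6 libraries compared and each library left out.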

Additional observations from a re-analysis of the deposited data

How the results depend on the processing

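With complete smoke the number of RGS genes called ranged over the fits without 1 library from 4 to 7 in BEAS-2B cells and from 2 to 4 in A549 cells. With filtered smoke it ranged from 4 to 7 and from 3 to 5. In the same fits the share of all genes called ran from 17.4% to 53.4% and from 9.11% to 43.8% with complete smoke, and from 21.8% to 54.9% and from 25.7% to 57.7% with filtered smoke. For complete against filtered smoke it was 0 in all of these fits in both lines. For the difference between lines it ran from 0 to 1 with complete smoke and was 0 with filtered smoke, with 0.467% to 4.5% and 0.257% to 1.03% of all genes called. In place of 0, line differences had 3 and 3 calls with no low-count filter, 2 and 2 by the DESeq2 Wald test and 3 and 1 without BEAS-2B clean air 1 and complete smoke 3 together, for complete and filtered smoke. With the replicate block there were 4 and 3, and library size alone gave 1 with filtered smoke. Over all genes, the shares called for complete and filtered smoke were 1.74% and 0.825% in the reported fit, 2.12% and 1.20% with no filter, 2.43% and 1.68% by DESeq2, 21.5% and 5.16% without those 2 libraries, and 20.0% and 15.5% with the block. The DESeq2 shares are over a larger set, 913 and 634 of 37637 genes, against 308 and 146 of 17703 in the reported fit. Library size alone called 4.64% with filtered smoke. The cause was not tested.

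The block result with complete smoke in BEAS-2B cells is given only here, because the numbers did not pair those libraries. It left the 7 calls against clean air at 7, and its 4 line differences were RGS2 (1.56), RGS10 (0.98), RGS16 (-2.19) and RGS20 (1.53). The block changed no other call of an RGS gene than those given in the report.

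Reversals were all of values that did not pass. RGS3 in BEAS-2B cells went to -0.46 with complete and -0.38 with filtered smoke under library size alone. In A549 cells with filtered smoke RGS12 went to 0.0062 with DESeq2 size factors, 0.0053 with no filter, 0.026 with counts that ignore strand and 0.0063 with the 6 libraries compared. RGS20 went to -0.16 with library size alone and -0.0043 with the block, and with complete smoke to 0.0026 with counts that ignore strand. Over the fits without 1 A549 library RGS3 ran from -0.029 to 0.38 and RGS20 from -0.29 to 0.21 with complete smoke. With filtered smoke RGS12 ran from -0.075 to 0.13 and RGS20 from -0.21 to 0.25. Over the values of single genes, 642 kept their direction and side of the threshold, 40 lost a call, 37 gained one and 19 changed sign. Depth limits RGS16 with clean air (2 to 14 counts a library) and RGS4 in A549 cells (0 to 3).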
